A study of Homo sapiens with 30 samples.

Results

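The 10 genes described here were chosen from these data because each was called lower with doxycycline in 1 of 2 experiments on the same engineered prostate cancer line and was not called lower in the other. They are 10 of the 57773 gene rows that each of the 4 count tables holds, and all 10 were found by symbol in every table. LAP3, PPIC, LMNB1, MYL9, MAD2L1BP and ANO6 were called lower in the experiment with an LSD1 inhibitor, here the inhibitor experiment. STAMBP, SLC11A2, ATP6V1G1 and GPR180 were called lower in the experiment with dihydrotestosterone (DHT), an androgen, here the DHT experiment. The doxycycline values themselves chose the genes, so they are given as descriptions with no test.

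RNA sequencing covered 3 human prostate cancer cell lines. In C4-2-tet-shRB cells, doxycycline switches on a hairpin RNA aimed at RB1, the retinoblastoma tumour suppressor. In the inhibitor experiment they had doxycycline (0.05 µg/ml, 3 days) or none, each with GSK2879552 (10 µM, 24 hours), which inhibits the histone demethylase LSD1, or DMSO, with 2 libraries per group. In the DHT experiment they had 0, 3 or 30 days of doxycycline (0.05 µg/ml), each with DHT (10 nM, 24 hours) or vehicle, with 1 library per group. VCaP cells had an siRNA against RB1 (siRB) or a control siRNA (siNTC), both at 20 nM for 2 days, with 3 libraries each. LNCaP cells had GSK2879552 (1 µM, 2 days) or vehicle, with 1 library each. The C4-2 medium held 5% charcoal-stripped serum in the inhibitor experiment, but 8% charcoal-stripped and 2% fetal bovine serum in the DHT experiment. The RNA kits also differed, an mRNA kit for the inhibitor and VCaP experiments and a total RNA kit for the DHT and LNCaP experiments. A control hairpin, or a line with no hairpin, was not given doxycycline in either C4-2 experiment, so loss of RB1, other effects of the hairpin and effects of doxycycline cannot be told apart within one.

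A short hairpin RNA is cut by the cell into a small guide RNA, which an Argonaute protein carries to transcripts that pair with it along its length. A short stretch near the guide's 5′ end, the seed, can also pair with 3′ untranslated regions (3′ UTRs) of other transcripts and lower them, much as a microRNA does. RB1 itself binds E2F transcription factors and restrains the genes of DNA synthesis, so its loss can change many transcripts with no pairing at all.

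Libraries held 14515932 to 22326960 counted reads in the inhibitor experiment, 14898454 to 16856486 in the DHT experiment, 4311455 to 7107036 in VCaP cells and 13085157 to 14036346 in LNCaP cells. Levels below are CPM (counts relative to the scaled library size), which follow transcript length and are not compared between genes. RB1 was at 4.64 to 6.75 CPM with doxycycline in the inhibitor experiment, against 22.1 to 32.7 CPM without it. RB1 was at 6.25 to 10.0 CPM with doxycycline in the DHT experiment, against 48.1 and 51.1 CPM without it. The luminal prostate marker KLK3 was detected in every library and the basal marker KRT5 was at 0 in all of them. Another basal marker, KRT14, was at 5.3 to 7.7 CPM in VCaP cells and at most 0.437 CPM in the other lines. VCaP cells also held the neuroendocrine markers CHGA (135.8 to 150.1 CPM) and SYP (70.9 to 85.2 CPM). The stromal marker COL1A1 was at 35.4 to 50.8 CPM in the inhibitor experiment. Other stromal markers were low there, with PDGFRB at 1.13 to 2.29 CPM and COL1A2, DCN and LUM at most 0.97 CPM. ERG, which is expressed from a fusion in VCaP cells, was at 274 to 328 CPM there and at most 0.218 CPM in the other lines. Nothing in the labels states that replicate libraries came from separate cultures, so the spread behind each p-value may be technical. In bulk RNA, fewer cells of a kind and less RNA per cell cannot be told apart.

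In the inhibitor experiment the 6 genes were each lower in all 4 doxycycline libraries than in all 4 libraries without it. The genes were chosen on these values, and the share of all genes that separate in this way was not counted. The separations below are therefore descriptions only. LAP3, the cytosolic leucine aminopeptidase that trims peptides, had 23.9 and 24.4 CPM with doxycycline and DMSO and 24.5 and 21.4 CPM with doxycycline and GSK2879552. Without doxycycline LAP3 had 52.2 and 53.1 CPM with DMSO and 54.5 and 51.0 CPM with GSK2879552. The gap between the sets was several times the range within each, and the inhibitor made no visible difference to it. PPIC, the prolyl isomerase cyclophilin C, had 6.21 and 4.46 CPM with doxycycline and DMSO and 4.61 and 4.75 CPM with doxycycline and GSK2879552. Its libraries without doxycycline had 14.1 and 13.7 CPM with DMSO and 13.9 and 13.6 CPM with GSK2879552. These are the lowest and the highest sets with no value in between, as for LAP3.

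LMNB1, which encodes lamin B1 of the nuclear lamina, had 85.9 and 82.6 CPM with doxycycline and DMSO and 82.1 and 81.6 CPM with doxycycline and GSK2879552. Without doxycycline it had 145.1 and 140.4 CPM with DMSO and 152.4 and 137.8 CPM with GSK2879552. The doxycycline libraries lay close together and well below the others. MAD2L1BP, whose product binds the checkpoint protein MAD2 and helps to switch the spindle checkpoint off, had 17.4 and 17.0 CPM with doxycycline and DMSO and 17.8 and 17.5 CPM with doxycycline and GSK2879552. Its libraries without doxycycline had 34.4 and 33.1 CPM with DMSO and 34.2 and 35.5 CPM with GSK2879552. The 4 doxycycline values of MAD2L1BP spanned less than 1 CPM.

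ANO6, a calcium-activated phospholipid scramblase of the plasma membrane, had 15.4 and 13.9 CPM with doxycycline and DMSO and 14.4 and 16.4 CPM with doxycycline and GSK2879552. Without doxycycline it had 26.1 and 30.5 CPM with DMSO and 32.2 and 31.3 CPM with GSK2879552. The sets again did not overlap. MYL9, a regulatory light chain of myosin II, had 1.17 and 1.25 CPM with doxycycline and DMSO and 2.10 and 2.06 CPM with doxycycline and GSK2879552. Without doxycycline MYL9 had 3.24 and 2.67 CPM with DMSO and 3.77 and 3.06 CPM with GSK2879552. Its doxycycline libraries were split by the inhibitor, those with GSK2879552 being nearer to the libraries without doxycycline.

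**Figure D1:**
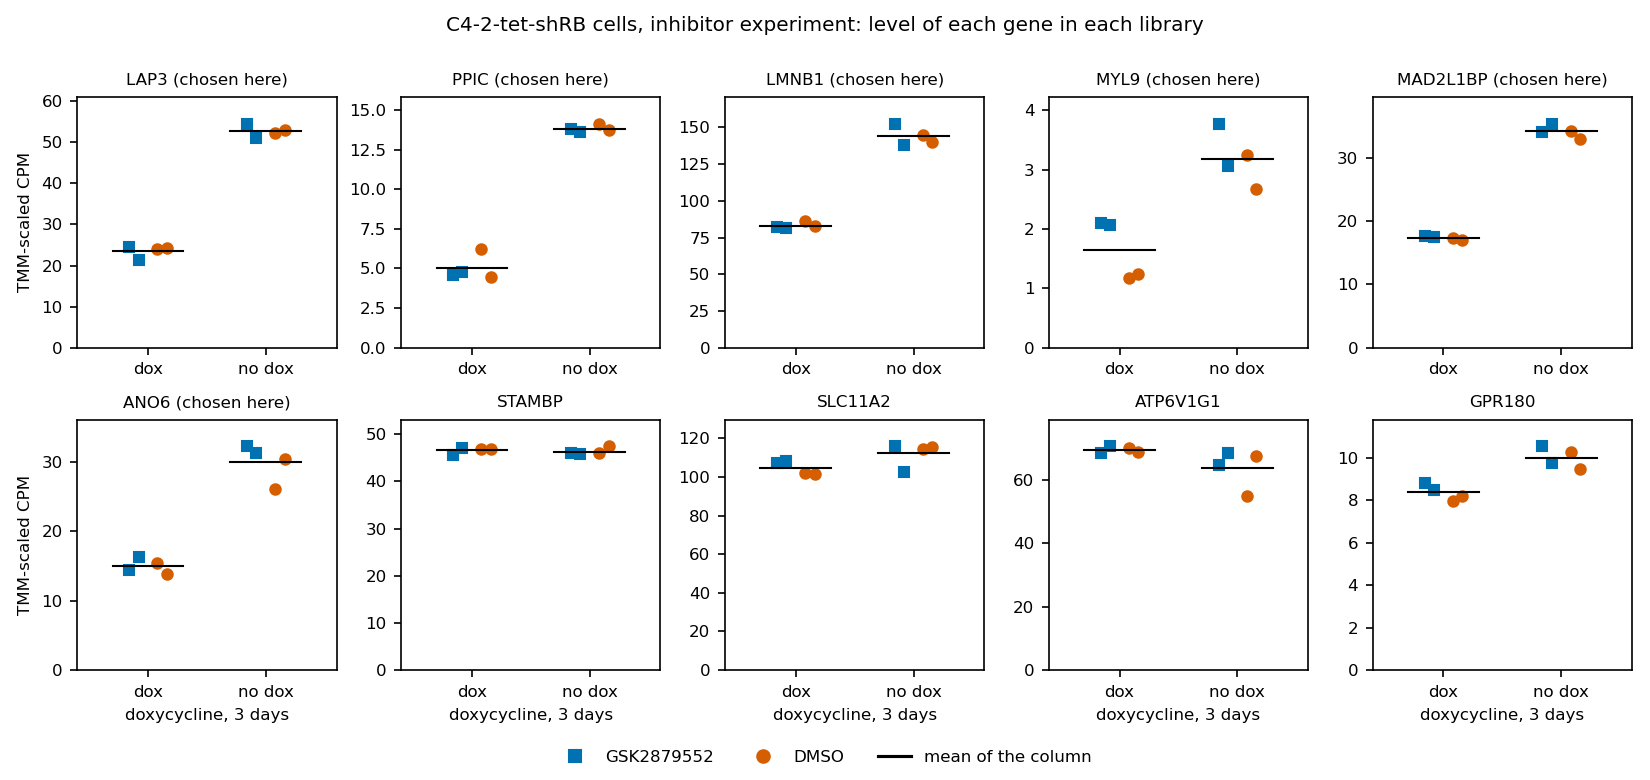
Levels (CPM) of the 10 genes in the 8 libraries of the inhibitor experiment, with doxycycline on the left and none on the right of each panel, blue squares for GSK2879552 and orange circles for DMSO, and a line at the mean of each column. The 6 genes chosen in this experiment have separate sets of points, which lie close together for MYL9 and far apart for the others. GPR180 (lower with doxycycline) and ATP6V1G1 (higher) have sets that separate by little, and those of STAMBP and SLC11A2 overlap.

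Fitted over the 8 libraries, doxycycline with DMSO gave log2 fold changes (± SE) of -1.39 ± 0.15 for PPIC, -1.28 ± 0.25 for MYL9, -1.12 ± 0.09 for LAP3, -0.97 ± 0.09 for MAD2L1BP, -0.96 ± 0.11 for ANO6 and -0.76 ± 0.07 for LMNB1. All 6 were below an adjusted p of 0.05 (the call used throughout), which the rule required, while 3.59% of the 18423 genes tested were called lower. With GSK2879552, doxycycline gave -1.56 ± 0.15 for PPIC, -1.198 ± 0.09 for LAP3, -1.05 ± 0.11 for ANO6, -0.98 ± 0.09 for MAD2L1BP and -0.83 ± 0.07 for LMNB1. MYL9 had -0.73 ± 0.22 and was not called there, and 3.2% of all genes were called lower. The share of counts from 13 mitochondrial protein genes was 4.41% and 4.40% in the doxycycline and DMSO libraries, against 2.72% and 3.58% with DMSO alone. It was 3.99% and 4.14% in the doxycycline and GSK2879552 libraries, against 4.61% and 4.05% with GSK2879552 alone. Whether this share bears on the changes of the genes was not tested. The doxycycline effect with the inhibitor minus that without it was 0.55 ± 0.34 for MYL9 and -0.16 to -0.01 for the other 5 genes. MYL9 rests on few counts: it was not called with DMSO by DESeq2 (-1.28), without the first DMSO library (-1.14) or without the first doxycycline and DMSO library (-1.24). The genes chosen in the DHT experiment had -0.29 to 0.18 with DMSO here and no call. SLC11A2 was called lower with DMSO when the fit held the 4 DMSO libraries alone (-0.17), without the first library with GSK2879552 alone (-0.17) or without the second (-0.18), and ATP6V1G1 was called higher from the 4 DMSO libraries alone (0.18). GPR180, with no call, was nevertheless lower in all 4 doxycycline libraries (7.97 to 8.81 CPM with doxycycline, against 9.47 to 10.5 CPM without). ATP6V1G1 was higher in all 4 (68.6 to 70.6 CPM, against 54.8 to 68.4 CPM). Without the share of all genes that separate in this way, such a separation says little by itself.

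Among the 16177 genes tested in both C4-2 experiments, 624 were called lower in the inhibitor experiment and not at 3 or 30 days in the DHT experiment. Of the 615 of these that averaged 1 or more on the log2 CPM scale, PPIC ranked 2, MYL9 3, LAP3 6, MAD2L1BP 11, ANO6 12 and LMNB1 39 by the size of the fall. The gene ranked 1 was LAP3P2, a processed copy of LAP3, at -1.55 ± 0.28. Reads of LAP3 and of this copy may have been split between them in the counting, so their values are not independent.

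**Figure D2:**
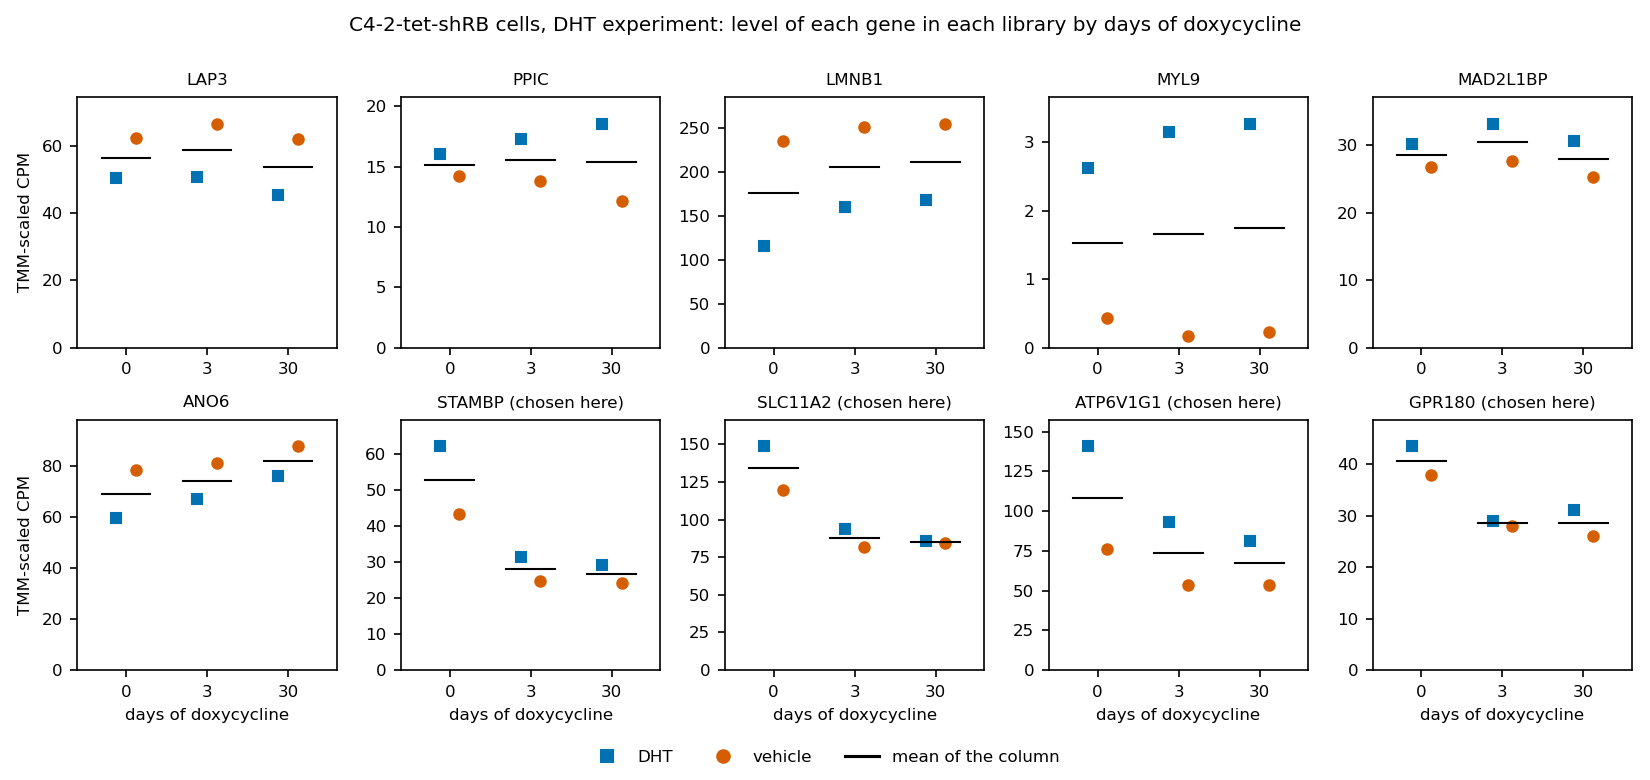
Levels (CPM) of the 10 genes in the 6 libraries of the DHT experiment at 0, 3 and 30 days of doxycycline, with blue squares for DHT and orange circles for vehicle, and a line at the mean of each column. The 4 genes chosen in this experiment drop between day 0 and day 3 in both arms and stay low at day 30.

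In that experiment, 3 days of doxycycline went with lower levels of the other 4 genes in both the DHT and the vehicle arm. STAMBP, a deubiquitinating enzyme of endosomes, had 62.0, 31.5 and 29.2 CPM at 0, 3 and 30 days with DHT, against 43.1, 24.7 and 24.0 CPM with vehicle. SLC11A2, a transporter that brings ferrous iron across membranes, had 148.5, 93.6 and 85.9 CPM with DHT, against 119.3, 81.9 and 84.4 CPM with vehicle. For both genes all 4 doxycycline libraries were below both day 0 libraries. ATP6V1G1, a subunit of the vacuolar proton pump that acidifies lysosomes, had 140.7, 93.0 and 81.3 CPM with DHT, against 76.0, 53.8 and 53.3 CPM with vehicle. GPR180, a membrane protein, had 43.4, 28.9 and 31.1 CPM with DHT, against 37.9, 28.0 and 26.0 CPM with vehicle. For ATP6V1G1 the sets separated within each arm but overlapped across arms, since its level was higher with DHT at every time. For GPR180 they did not overlap in either view. These 4 genes were chosen on these values, and the share of all genes that separate in this way was not counted.

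Day 3 against day 0, fitted over both arms, gave -0.89 ± 0.09 for STAMBP, -0.61 ± 0.07 for SLC11A2, -0.55 ± 0.07 for ATP6V1G1 and -0.51 ± 0.09 for GPR180. All 4 were called, as the rule required, and 0.197% of the 17300 genes tested were called lower. Taken 1 library against 1, STAMBP had -0.98 with DHT (95% exact binomial interval -1.15 to -0.81, counting error only) and -0.81 with vehicle (-0.98 to -0.63). At 30 days the changes were -0.97 ± 0.09 for STAMBP, -0.66 ± 0.08 for ATP6V1G1, -0.64 ± 0.07 for SLC11A2 and -0.51 ± 0.09 for GPR180, and 1.52% of all genes were called lower. The day 3 and day 30 values share their day 0 libraries. GPR180 lost its 3-day call with DESeq2 (-0.51) and without the day 3 library given DHT (-0.42).

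The 6 genes of the inhibitor experiment had 0.04 to 0.26 at 3 days and -0.08 to 0.31 at 30 days in the DHT experiment. MYL9 had the widest error of the 6, with 0.04 ± 0.38 at 3 days and 0.13 ± 0.37 at 30 days. Its 3-day ratio of single libraries was -1.39 with vehicle (exact binomial interval -3.97 to 0.74), on 3 counts against 7. With DHT the ratio was 0.27 (-0.40 to 0.94). The vehicle counts of MYL9 are too few to show whether it fell there. LMNB1 was higher with doxycycline in each arm, at 116.0, 160.8 and 168.3 CPM at 0, 3 and 30 days with DHT and 236.1, 251.0 and 255.0 CPM with vehicle. Its 30-day change was 0.31 ± 0.08, a call in the direction opposite to that of the inhibitor experiment. That call was lost with DESeq2, without the day 0 library given DHT (0.12) and without the day 30 library given DHT (0.20). In the other direction, LMNB1 gained a call at 3 days under 4 alternatives (0.27 to 0.48). ANO6 gained a call at 30 days under 1 alternative (0.34). LAP3 had 50.5, 50.9 and 45.4 CPM with DHT and 62.4, 66.6 and 62.0 CPM with vehicle, with no step at the start of doxycycline. Called lower in the DHT experiment at 3 days and not in the inhibitor experiment were 29 genes, of which STAMBP ranked 1, SLC11A2 3, ATP6V1G1 4 and GPR180 5 by size, with CDKN1C (-0.61 ± 0.14) ranked 2. The next gene after GPR180 was SLC39A14, a transporter of zinc and iron (-0.48 ± 0.06).

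**Figure D3:**
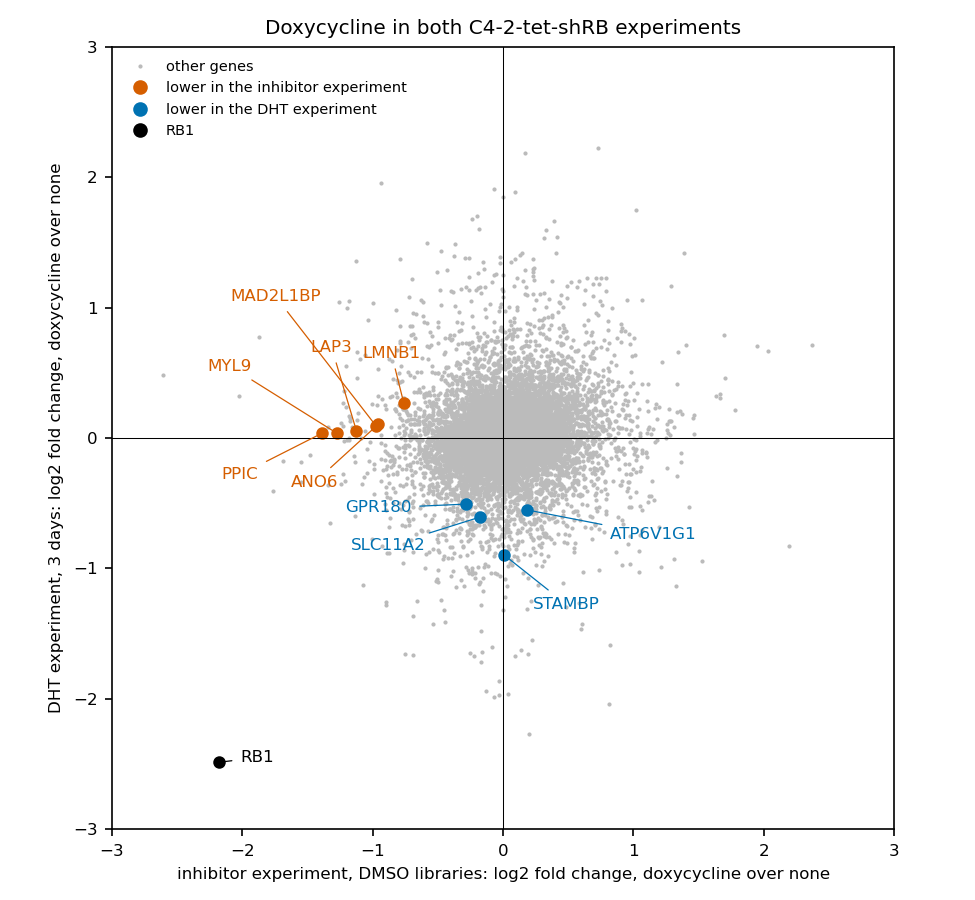
Log2 fold change of doxycycline over none for each gene tested in both C4-2 experiments, with the inhibitor experiment (DMSO libraries) on the horizontal axis and the DHT experiment (3 days) on the vertical axis. The 6 orange genes lie along the horizontal axis at -1.39 to -0.76, the 4 blue genes lie below it at -0.89 to -0.51, and RB1 is low on both.

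Among the 16177 genes tested in both experiments, 651 were called lower in the inhibitor experiment and 34 at 3 days in the DHT experiment, and 5 were in both lists, 0.768% of the first and 14.7% of the second. These 5 were RB1, C9orf41, LDHD, NDRG1 and TMPRSS2. At 30 days 259 of these 16177 genes were called lower, of which 25 were also in the list of the inhibitor experiment (3.84% of that list and 9.65% of the 30-day list). MIR30A, a microRNA gene whose hairpin is a common scaffold for expressed short hairpin RNAs, had 95.7 to 102 CPM with doxycycline in the inhibitor experiment, against 2.06 to 2.53 CPM without. Its level in the DHT experiment was 79.0 to 116 CPM with doxycycline, against 1.56 and 2.18 CPM without. It was thus high with doxycycline in both experiments, and the counts do not give the sequence of the hairpin in either.

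The 3′ UTRs of the 10 genes were then read for short words. Every 7-letter word held by at least 100 of 9210 expressed genes (15533 words, the 10 genes and RB1 left out) was ranked by the mean log2 change of the genes with it, adjusted for 3′ UTR length and GC content, times the square root of their number. This score gives weight to words held by many genes. The word ranked lowest was GAACTTA in the inhibitor experiment and GAAATTA in the DHT experiment, and these differ at 1 of 7 letters. Of the 6 genes chosen in the inhibitor experiment, 5 held GAACTTA in the 3′ UTR (MYL9 held none), and in all 5 the next base was A. Of the 4 genes chosen in the DHT experiment, 4 held GAAATTA, and in 3 of them at least 1 copy was followed by A. The sites are shown because most genes of each set hold at least 1 of them. Each line gives 23 bases of transcript from GENCODE release 29, 5′ to 3′, with the word in capitals, and the position of the word on GRCh38 by a match to that reference (the count tables used hg19).
LAP3 (chr4:17607636-17607642, + strand, exon 13): ttaaattggacagttGAACTTAa
PPIC (chr5:123023662-123023668, - strand, exon 5): ctgcttagggactttGAACTTAa
LMNB1 (chr5:126836480-126836486, + strand, exon 11): tgaattattgacactGAACTTAa
MAD2L1BP (chr6:43640907-43640913, + strand, exon 3): gtggatgtgacttatGAACTTAa
ANO6 (chr12:45431447-45431453, + strand, exon 20): cctgtatgtatgataGAACTTAa
STAMBP (chr2:73862487-73862493, + strand, exon 10): agcaactgtaactcaGAAATTAa
STAMBP (chr2:73862503-73862509, + strand, exon 10): aaattaagttactcaGAAATTAa
STAMBP (chr2:73862519-73862525, + strand, exon 10): aaattaagtagctcaGAAATTAa
SLC11A2 (chr12:50986129-50986135, - strand, exon 16): tgctacattatactgGAAATTAa
ATP6V1G1 (chr9:114597918-114597924, + strand, exon 3): ttttgtacagacttaGAAATTAt
GPR180 (chr13:94628852-94628858, + strand, exon 9): ctgagatgcaaaaaaGAAATTAa
GPR180 (chr13:94632576-94632582, + strand, exon 9): aatacagacaaggctGAAATTAa

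All of these sites are in the 3′ UTR of the last exon. STAMBP holds 3 copies at positions 228, 244 and 260 of its 3′ UTR and 1 further on, for 4 in all. GPR180, with the smallest 3-day change of the 4 genes, holds 5, and SLC11A2 and ATP6V1G1 hold 1 each. Long 3′ UTRs hold more words, and those of GPR180 (7474 bases), STAMBP (4913 bases), ANO6 (3040 bases) and SLC11A2 (2333 bases) are long. Among the 4345 genes with at least 2102 bases 19.5% held GAACTTA, and among the 4186 with at least 2155 bases 37.7% held GAAATTA. LAP3 (379 bases), MAD2L1BP (419 bases), PPIC (625 bases) and LMNB1 (756 bases) are short, and 1.61% of the 4338 genes with at most 764 bases held GAACTTA. ATP6V1G1 (630 bases) is also short, and 3.73% of the 4185 genes with at most 788 bases held GAAATTA. Over all lengths, GAACTTA followed by A was in 3.62% of genes, and GAAATTA followed by A in 7.69%.

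Of the 6 genes of the inhibitor experiment 0 held GAAATTA in the 3′ UTR, where 18.1% of all genes tested there held it. Of the 4 genes of the DHT experiment 1, SLC11A2, held GAACTTA (followed by T), where 9.5% of all genes tested there held it. Both counts are too small to read against these shares. Of the closest relatives, PPIB, LMNA, LMNB2, MYL12A, MYL12B and STAMBPL1 held neither word, MAD2L1 held both, ATP6V1G3 held GAACTTA, and PPIA and ANO5 held GAAATTA. RB1, the transcript at which the hairpin is aimed, held both words, and its sites are shown for that reason.
RB1 (chr13:48347832-48347838, + strand, exon 5, coding): ttggaaaggacatgtGAACTTAt
RB1 (chr13:48480774-48480780, + strand, exon 27, 3′ UTR): cctcagaatgtaaaaGAACTTAc
RB1 (chr13:48303798-48303804, + strand, exon 1, 5′ UTR): ttctcaggggacgttGAAATTAt
RB1 (chr13:48307328-48307334, + strand, exon 2, coding): tactgcattatgtcaGAAATTAa
RB1 (chr13:48480596-48480602, + strand, exon 27, 3′ UTR): aaatggatattattaGAAATTAg

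Genes other than the 10 showed how each word went with each comparison. GAACTTA was held by 927 of the ranked genes, whose adjusted mean log2 change with doxycycline was -0.11 with DMSO and -0.10 with GSK2879552, rank 1 of 15533 in both. The same word ranked 8111 at 3 days and 11244 at 30 days in the DHT experiment, and after siRB in VCaP cells it ranked 8495. GAAATTA was held by 1829 ranked genes, whose adjusted mean was -0.02 at 3 days and -0.03 at 30 days, rank 1 by the score in both, though some words held by fewer genes had lower means. It ranked 3987 with DMSO and 2981 with GSK2879552 in the inhibitor experiment, and 1056 after siRB in VCaP cells. Taken 1 library against 1, GAAATTA ranked 1 at 3 and 30 days in the DHT arm and at 3 and 30 days in the vehicle arm. The 3-day arms hold the libraries on which the word was picked, and the 30-day arms share their day 0 libraries. These ranks are therefore no separate support. The ranks of 1 in the doxycycline comparisons remained with the shortest annotated 3′ UTR of each gene and with a lower limit on expression, both tried after the values were seen. The words were picked as the lowest of many on these same values, so no p is given. The hairpin's sequence was not used here, and whether either word is part of its target was not tested.

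**Figure D4:**
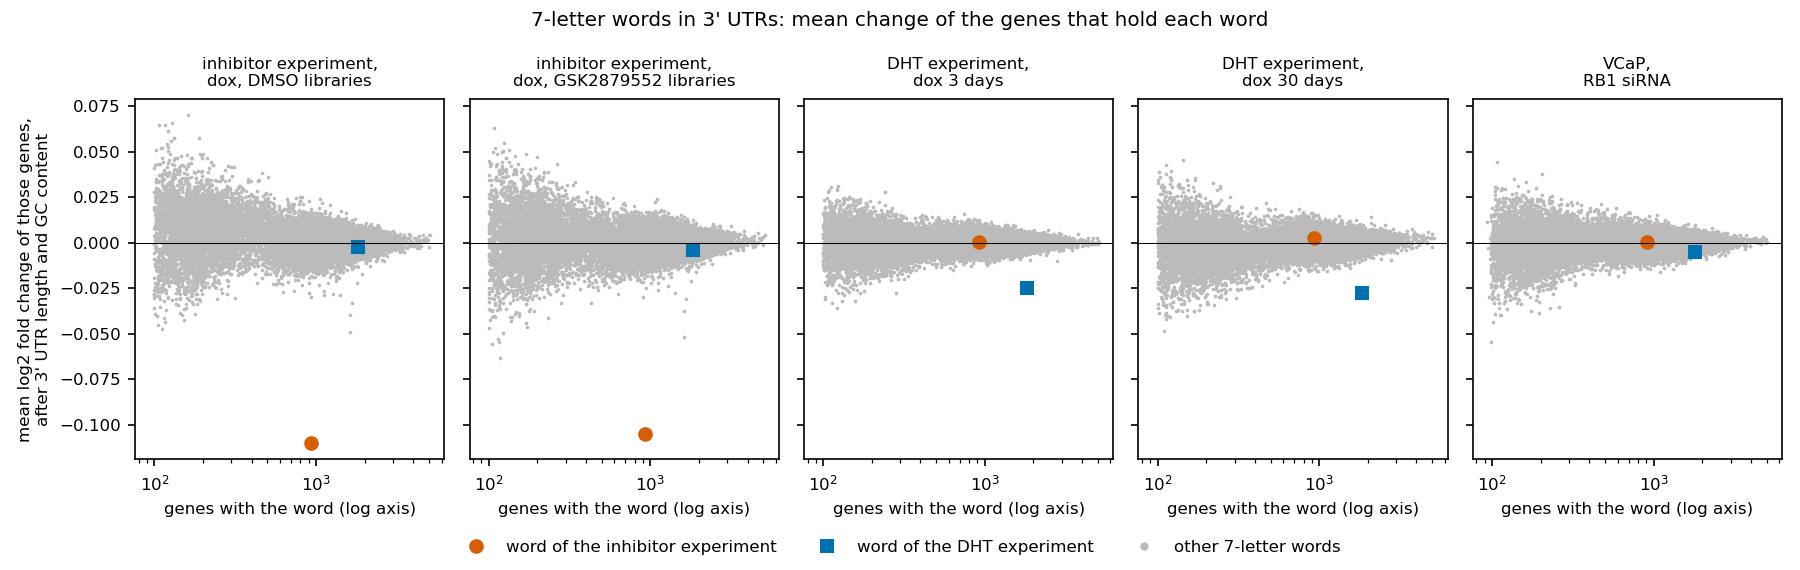
Mean adjusted log2 fold change of the genes that hold each 7-letter word in the 3′ UTR (vertical axis) against the number of such genes (horizontal axis, log scale), 1 dot per word and 1 panel per comparison, with GAACTTA and GAAATTA marked. GAACTTA stands apart below the other words in both inhibitor-experiment panels. GAAATTA is the lowest among words held by many genes in both DHT-experiment panels, where some words held by few genes have lower means.

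Called genes were also counted by word. Of 13029 genes with a 3′ UTR, 9.16% held GAACTTA, as did 157 of the 582 called lower with doxycycline and DMSO (27%) and 42 of the 698 called higher (6.02%). Of genes that held it, 13.2% were called lower, against 3.59% of genes without it, and the median log2 changes were -0.07 and 0.01. The share called lower was 16.3% where the word was followed by A and 11.1% where it was not, and 18.4% with 2 or more copies and 12.4% with 1. At 3 days in the DHT experiment, 17 of the 28 genes with a 3′ UTR called lower held GAAATTA (60.7%), as did 18.6% of 12557 genes and 6 of the 46 called higher (13%). At 30 days it was in 75 of 237 called lower (31.6%) and in 104 of 410 called higher (25.4%), so the gap was small there. Before adjustment for length, the 3-day medians of genes with and without GAAATTA hardly differed (-0.003 and -0.0004). Among genes called lower after siRB in VCaP cells, 13% held GAACTTA and 27.5% held GAAATTA, against 9.61% and 18.9% of the genes tested there.

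Levels across the 14 C4-2 libraries, centred within each experiment, were compared between the genes. Log2 levels of LAP3 correlated with those of ANO6 (Pearson's r = 0.94), MAD2L1BP (0.87), LMNB1 (0.86) and PPIC (0.85), and with those of GPR180 (0.40) and STAMBP (-0.10). STAMBP correlated with SLC11A2 (0.95), ATP6V1G1 (0.84) and GPR180 (0.81). GPR180 correlated with ATP6V1G1 (0.56) of its own set about as with MAD2L1BP (0.52) and PPIC (0.51) of the other. The points share libraries and treatments, and the genes were chosen for these treatments, so the values only describe. Of 9810 expressed genes, the 5 most like LAP3 were VTA1 (0.97), PDCD5 (0.95), TAGLN2 (0.95), ATXN7L3B (0.95) and COPS7B (0.95). The 5 most like STAMBP were SLC11A2, ARF3 (0.94), TTLL12 (0.91), PHYKPL (0.91) and C5orf15 (0.89).

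Relatives and partners of the 10 genes mostly had no call for doxycycline. In the inhibitor experiment LMNB2, which encodes the other B-type lamin, had 0.17 ± 0.07, LMNA -0.11 ± 0.08, cyclophilin B gene PPIB 0.06 ± 0.06, the myosin light chain genes MYL12A and MYL12B 0.12 ± 0.08 and -0.05 ± 0.07, and MAD2L1 0.09 ± 0.12. STAMBPL1, the nearest relative of STAMBP, had 0.10 ± 0.19 at 3 days in the DHT experiment. None of these was called in the comparison given. SLC11A1, a relative of SLC11A2, was called lower with doxycycline and DMSO (-0.49 ± 0.12) and had 0.18 ± 0.19 at 3 days in the DHT experiment. PPIB was called lower at 30 days in the DHT experiment (-0.23 ± 0.07). The 20 genes next to the 10 on their chromosomes had -0.40 to 0.82 in the experiment of their neighbour, with 0 called lower and 2 called higher (MARCH3 beside LMNB1, 0.82 ± 0.20, and GTPBP2 beside MAD2L1BP, 0.37 ± 0.07). Of 13029 genes with a 3′ UTR, 582 were called lower and 698 higher with doxycycline and DMSO.

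Gene lists built around each member were counted beside the share of all genes called lower, 3.59% with doxycycline and DMSO and 0.197% at 3 days in the DHT experiment. With doxycycline and DMSO, 698 of 13029 genes with a 3′ UTR were called higher. At 3 days in the DHT experiment, 46 of 12557 such genes were called higher. With doxycycline and DMSO, 0 of 17 further peptidases, 0 of 16 cyclophilins and 0 of 15 lamina and linker genes were called lower by edgeR (5, 0 and 1 at an unadjusted p under 0.05), with medians of -0.06, -0.01 and 0.00 against 0.00 for all genes. The peptidase list had 0 called higher, while the cyclophilin list had 1 (PPIF, 0.26 ± 0.07) and the lamina list 1 (TMPO, 0.35 ± 0.08). Of 19 myosin II and actin-bundle genes, 3 were called lower, among them the tropomyosin gene TPM2 (-0.99 ± 0.21) and the myosin heavy chain gene MYH14 (-0.32 ± 0.08), and 1 higher, ACTA2 (0.96 ± 0.23). Of 12 spindle checkpoint genes, 0 were called lower and 2 higher, AURKB (0.42 ± 0.09) and KNTC1 (0.39 ± 0.10). Of 10 anoctamins and scramblases, 0 were called lower and 2 higher (XKR8, 0.51 ± 0.11, and ATP11A, 0.47 ± 0.07). At 3 days in the DHT experiment, 0 of 24 endosomal sorting genes, 0 of 18 proton pump genes and 0 of 6 relatives of GPR180 were called in either direction by edgeR, which at that share says little about the lists. At an unadjusted p under 0.05, 2, 4 and 0 of these were lower. Of 20 genes of iron uptake and storage 1 was called lower, SLC39A14, which was called higher in the inhibitor experiment (0.39 ± 0.07). Of 13 genes of the small RNA machinery, 1 was called lower with doxycycline and DMSO (TNRC6B) and 0 at 3 days in the DHT experiment.

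Depletion of RB1 by siRNA in VCaP cells asked whether the genes move with loss of RB1 by another route. RB1 had 5.35, 6.74 and 7.41 CPM in siRB libraries, against 56.49, 59.96 and 63.86 CPM in siNTC libraries, a log2 change of -3.22 ± 0.12 (adjusted p = 4.55e-39, edgeR quasi-likelihood test with Benjamini-Hochberg adjustment). Of the 10 genes 9 were tested, MYL9 being under the count filter, and 0 were called in either direction, while 2.65% of 14066 genes were called lower and 2.96% higher. At an unadjusted p under 0.05 the count was 1 (LMNB1), and DESeq2 and the edgeR fits that left out 1 library each also called 0. LAP3 had 96.0, 101.7 and 101.8 CPM in siRB libraries, against 98.1, 97.4 and 97.2 CPM in siNTC libraries. Its log2 change was 0.03, with a 95% interval of -0.08 to 0.14. STAMBP had 50.2, 53.3 and 49.0 CPM in siRB libraries, against 52.37, 49.96 and 54.80 CPM in siNTC libraries, a change of -0.04 with an interval of -0.20 to 0.11. Levels of both genes overlapped between the groups.

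Of the other 7 genes tested, PPIC had the widest interval. MAD2L1BP had 0.00 (95% interval -0.15 to 0.15), ANO6 -0.01 (-0.16 to 0.14), SLC11A2 -0.01 (-0.10 to 0.08), ATP6V1G1 -0.07 (-0.15 to 0.01) and GPR180 -0.10 (-0.29 to 0.09). PPIC had 0.31 (-0.31 to 0.93) on 6 to 23 counts per library. LMNB1 was slightly higher in siRB libraries, at 149.4, 156.5 and 158.8 CPM, against 140.2, 138.3 and 149.4 CPM in siNTC libraries. Its change of 0.12 had an interval of 0.02 to 0.21 for this gene alone, and it was not called over all genes (the lowest adjusted p of the 9 genes was 0.146 in edgeR). The lowest siRB and the highest siNTC values of LMNB1 were both 149.4 CPM.

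GSK2879552 in C4-2 cells, averaged over doxycycline, called 0 of the 10 genes by edgeR and by DESeq2 (1 at an unadjusted p under 0.05, MYL9), while 0.657% of 18423 genes were called lower and 2.61% higher. The changes were -0.10 to 0.12 for 9 genes and 0.50 ± 0.17 for MYL9 (adjusted p = 0.128 in edgeR). MYL9 was called when the second library with GSK2879552 alone was left out (0.56, adjusted p = 0.03 in edgeR). In LNCaP cells there was 1 library per group and no test. The genes named next had an interval of counting error that left out 0. The share of all genes with such an interval was not counted, so this is not read as a result about them. PPIC had 8.12 CPM with GSK2879552, against 3.67 CPM with vehicle (log2 ratio 1.14, 95% interval 0.65 to 1.66), and ANO6 had 48.3 CPM, against 29.7 CPM (0.70, 0.52 to 0.89). GPR180 had 11.3 CPM, against 7.56 CPM (0.58, 0.21 to 0.95), and LMNB1 had 42.1 CPM, against 66.4 CPM (-0.66, -0.81 to -0.50). SLC11A2 had a smaller ratio (0.19, 0.08 to 0.30). Among the 11955 LNCaP genes with 100 or more counts over both libraries, 2.97% differed by at least 2-fold, and of the 10 genes PPIC alone did.

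DHT moved most of the 10 genes, in a comparison in which 22.8% of 17300 genes were called lower and 24.3% higher. Fitted over 3 libraries with DHT and 3 with vehicle, 6 of the 10 were called higher and 3 lower by edgeR with Benjamini-Hochberg adjustment, with GPR180 just short of the call (0.17 ± 0.07, adjusted p = 0.058; 0.0483 without the day 3 library given DHT). Of the genes chosen in the inhibitor experiment, LMNB1 decreased by 0.75 ± 0.06 in log2 units (adjusted p = 1.43e-10), LAP3 by 0.38 ± 0.06 (adjusted p = 9.52e-06) and ANO6 by 0.29 ± 0.06 (adjusted p = 0.000198). MYL9 rose most, with 2.62, 3.15 and 3.27 CPM at 0, 3 and 30 days with DHT, against 0.438, 0.168 and 0.232 CPM with vehicle (3.42 ± 0.35, adjusted p = 5.39e-09). Those vehicle libraries held 3 to 7 MYL9 counts. Of the genes chosen in the DHT experiment, ATP6V1G1 rose by 0.77 ± 0.06 (adjusted p = 4.31e-11) and STAMBP by 0.40 ± 0.07 (adjusted p = 3.65e-05). Their change with DHT was opposite in sign to their change with doxycycline.

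PPIC (0.37 ± 0.10), MAD2L1BP (0.24 ± 0.07) and SLC11A2 (0.18 ± 0.06) were called higher with DHT by edgeR but not by DESeq2 (adjusted p of 0.0641, 0.109 and 0.0855). The call was also lost for PPIC without either day 30 library, for MAD2L1BP without either day 3 or either day 30 library and for SLC11A2 without either day 0 or either day 3 library (adjusted p of 0.0587 to 0.125 in edgeR). The fit takes the DHT change as equal at all doxycycline times. Taken 1 library against 1, SLC11A2 had 0.32, 0.19 and 0.03 at 0, 3 and 30 days. PPIC had 0.17, 0.32 and 0.61, MAD2L1BP 0.17, 0.26 and 0.28, and LMNB1 -1.025, -0.64 and -0.60. Whether the DHT change differs between times was not tested. Among the lists, 13 of 18 further proton pump genes were called higher with DHT and 1 lower, and ATP6V0B had 0.89 ± 0.06. Of 19 myosin II genes 13 were called higher and 2 lower, and of 24 endosomal sorting genes 15 were called higher and 2 lower. Of 12 spindle checkpoint genes 10 were called lower and 0 higher, MAD2L1 among them (-1.08 ± 0.07).

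**Figure D5:**
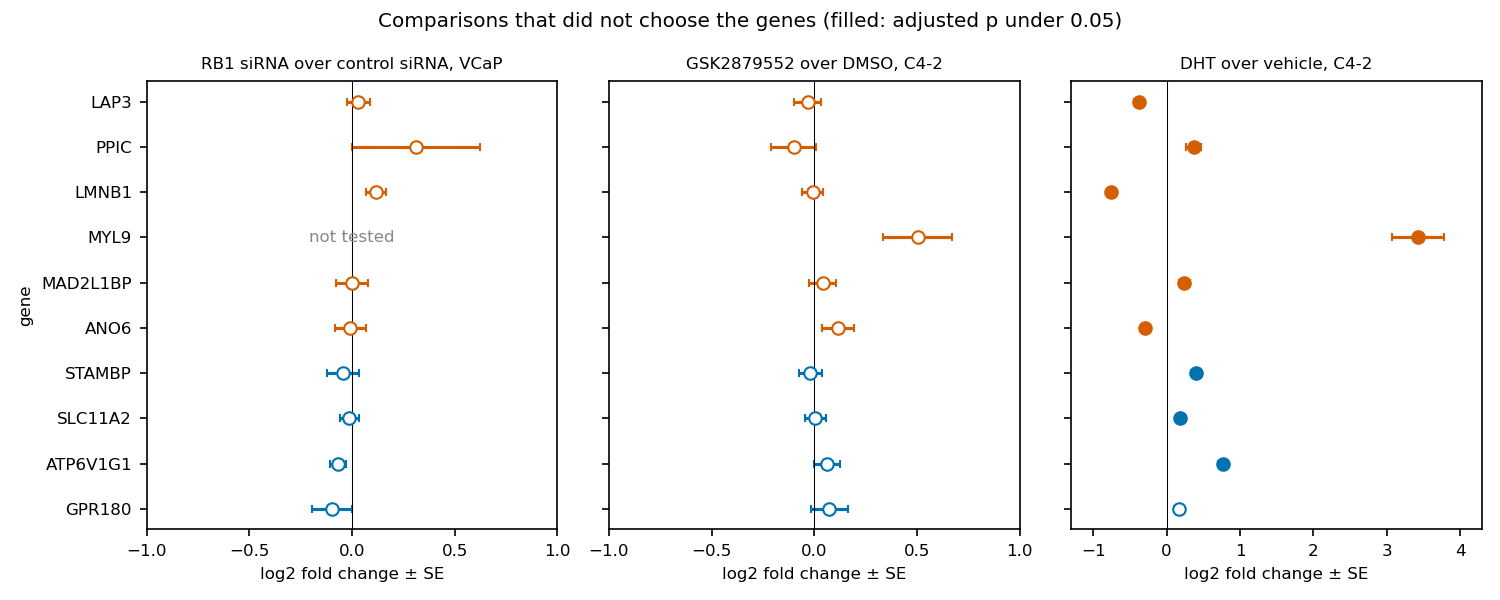
Log2 fold change with SE of the 10 genes in the comparisons that did not choose them, siRB over siNTC in VCaP cells, GSK2879552 over DMSO in C4-2 cells and DHT over vehicle in C4-2 cells, with filled points for an adjusted p under 0.05 in edgeR. Filled points occur only for DHT, where 9 of 10 are filled.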

How the data were processed

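Counts of reads per gene in 30 columns were deposited by the authors with no normalization. Per the submitters' processing notes, FastQC 0.11.9, STAR 2.7.2, featureCounts 1.6.4 and hg19 (GRCh37) were used, and strand setting and annotation version are not given in the sources used here. Paired columns of the DHT and LNCaP experiments carry 1 library name each and differed by no more than counting error (chi-square ratio 0.983 to 1.01 and 0.994 to 0.996), so they were summed as lanes of 1 library. Labels give the VCaP medium as 10% FBS while VCaP library names refer to stripped serum.

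Each experiment was fitted separately in edgeR 4.0.16 (R 4.3.3) with TMM scaling, filterByExpr, the quasi-likelihood F test and Benjamini-Hochberg adjustment over all genes tested, at 0.05. The SE of a log2 change was derived from its F value, and 95% intervals from that SE and the t distribution with the fit's degrees of freedom. The inhibitor experiment was fitted as 4 groups, and the DHT experiment as doxycycline time plus DHT, which leaves 2 residual degrees of freedom. On simulated data with 200 changed genes, fits were checked before use. DESeq2 1.42.0, other filters and left-out libraries were alternatives. The members and lists were chosen with earlier results of these data known. Further genes named are up to 2 per list and direction with the smallest p, the neighbours and closest relatives, and the 5 most alike.

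3′ UTR words used the longest 3′ UTR per gene (at least 30 bases), genes with a mean log2 CPM above 3 in both C4-2 experiments, log2 changes limited to 1.5, and the rank of mean times the square root of the number of genes. In 300-base RefSeq promoters (GRCh38.p14), the E2F motifs TTTGGCGC and TTTCGCGC on either strand were in 0 of 13 windows of 8 of the members (MYL9 and STAMBP were not matched) and in 1.15% of 35116.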

Additional observations from a re-analysis of the deposited data

How the results depend on the processing

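Of 740 values of the 10 genes and RB1 under alternatives, 706 kept their side of the threshold, 21 lost a call and 13 gained a call. Of these values, 0 changed sign with a call in the main or the alternative fit. Changes of sign with no call in either fit were not counted. The calls by edgeR numbered 790 for siRB in VCaP cells (DESeq2 341, 515 to 826 with 1 library left out), 602 for GSK2879552 in C4-2 cells (996 with no filter, 338 with a replicate block, 221 to 2849 with 1 library left out) and 8149 for DHT (DESeq2 5323). For doxycycline they numbered 1444 with DMSO (908 with the replicate block, 3540 from the 4 DMSO libraries alone, 279 to 3200 with 1 library left out), 1422 with GSK2879552 (903 with the replicate block, 316 to 3201), 81 at 3 days (DESeq2 30, no filter 222, 19 without the day 3 library given DHT to 1002 without the day 0 vehicle library) and 697 at 30 days (DESeq2 161, 207 to 1965). The causes were not tested. Of the 10 genes, with 1 library left out, 0 to 1 were called for GSK2879552, 7 to 8 for DHT, 5 to 7 with doxycycline and DMSO, 3 to 5 at 3 days and 4 to 6 at 30 days. Replicate numbers did not pair the libraries (same-number correlations -0.03 to 0.04 in VCaP cells and -0.51 to 0.26 in the inhibitor experiment), and the block is given here only. The negative values in the inhibitor experiment all involved the libraries with GSK2879552 alone. With 2 libraries per group, correlations with the other number are the same values with the sign changed (0.34 to 0.51). They are no separate result. Replicates there differed by more than counting error (chi-square ratio 1.61 to 7.88, against 1.127 to 1.395 in VCaP cells). A difference among libraries that is shared across groups was thus possible there and was not modelled in the main fits. LNCaP and DHT-experiment groups hold 1 library each, so precision there rests on counts or on the additive fit.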
